A study of Mus musculus with 6 samples.

Results

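Amino acid transporters of the solute carrier (SLC) superfamily were examined in mouse CD4+ T cells cultured with idelalisib. The members are the protein-coding genes whose symbol begins with Slc1a, Slc3a, Slc6a, Slc7a, Slc36a, Slc38a or Slc43a followed by a number. The rule found 64 of the 54532 genes in the deposited table. These were 7 SLC1, 2 SLC3, 21 SLC6, 16 SLC7, 4 SLC36, 11 SLC38 and 3 SLC43 genes. The name rule also takes in genes that do not carry amino acids. Slc7a6os is a neighbour of Slc7a6 on the opposite strand and no transporter. Slc43a3 carries nucleobases, Slc6a8 carries creatine, and several SLC6 members carry neurotransmitters.

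CD4+ T cells were purified from C57BL/6 mouse spleens and kept under T helper 1 (Th1) polarising conditions for 72 h, either without drug (control) or with idelalisib, which blocks PI3K delta, a lipid kinase downstream of the T cell receptor. The labels give 3 biological replicates in each of the 2 groups, and poly(A) RNA was sequenced in 6 libraries. No genetic change is named in the labels. The sources used here do not give the drug's dose, the solvent of the control cultures, the number of mice or whether replicates came from separate mice. P-values thus reflect only how far these cultures differ from each other, and that spread may be technical.

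Activated T cells take up large amounts of amino acids for protein synthesis and growth, and transporter genes are induced when T cells are stimulated. SLC7A5 (LAT1) imports leucine and other large neutral amino acids and reaches the cell surface only when bound to the heavy chain CD98, encoded by Slc3a2. SLC1A5 (ASCT2) and the sodium-coupled SLC38 proteins carry glutamine and other small neutral amino acids, SLC7A1 carries arginine and lysine, and SLC36 and some SLC38 proteins act at the lysosome. PI3K and mTORC1 signalling are known to promote nutrient transporter expression in T cells. ATF4, the transcription factor of the amino acid response, is known to bind the sequence TGATGNAA and to induce many transporter genes when amino acids are short.

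The labelled cell type was checked first. The T cell genes Cd3e (147.1 and 174.9 CPM in control and idelalisib cells) and Cd4 (554.0 and 473.9 CPM) were detected in every library, where CPM is the read count scaled to a common library total with the trimmed mean of M-values (TMM) method. Of 10 listed CD4+ T cell genes, 2 were higher, 2 lower and 6 not called with idelalisib, and their summed level was 3635 to 3686 CPM in control and 3315 to 3656 CPM in idelalisib libraries. Total counts ranged from 13372318 to 16770452 per library, so 1 CPM rests on 14.0 to 16.7 reads. Of 14530 genes that passed the low-count filter, 44.6% were called, meaning an adjusted p below 0.05 in the quasi-likelihood test of edgeR, 22.2% higher and 22.4% lower with idelalisib. In 54.6% of the tested genes the CPM values of the groups did not overlap. B cell markers rose in 5 of 7 tested genes, and their summed level over the 10 listed genes was 20.9 to 21.9 CPM in control and 25.4 to 30.3 CPM in idelalisib libraries. CD8+ T cell markers (1 of 2 tested genes higher) summed to 4.43 to 7.86 and 7.24 to 9.50 CPM, and erythroid and platelet markers (2 of 3 higher, Pf4 and Itga2b) to 6.44 to 7.20 and 9.74 to 16.99 CPM. NK cell markers summed to 1.81 to 3.10 and 1.51 to 2.69 CPM, with Ncr1 at 0 in all libraries. The macrophage and dendritic cell sum was 29.5 to 30.2 and 20.8 to 22.2 CPM, mostly Cd68 and Zbtb46, with Siglech at 0. Granulocyte markers summed to 48.5 to 50.3 and 119.0 to 148.1 CPM, nearly all of it Ly6g and Cxcr2, while S100a8 and S100a9 averaged at most 0.091 CPM in either group. Their part in the results below was not tested. In bulk libraries, fewer cells of a type and less RNA per cell cannot be told apart.

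Promoter sequences are shown for 3 members, because Atf4 itself fell with idelalisib and these genes differ in how they moved: Slc38a2 fell, Slc1a4 was called higher and Slc7a11 was not called. The sequences are from RefSeq on build GRCm38.p6 (mm10) and run 5′ to 3′ from 250 bases before to 20 bases after the annotated start site. Capitals mark matches on either strand to TGATGNAA or to GTAAACA, the core motif of FOXO factors. The CACGTG E-box bound by MYC was also searched and is absent from these 3 stretches. The matches do not overlap each other.
Slc38a2, chr15:96699709-96699978, minus strand: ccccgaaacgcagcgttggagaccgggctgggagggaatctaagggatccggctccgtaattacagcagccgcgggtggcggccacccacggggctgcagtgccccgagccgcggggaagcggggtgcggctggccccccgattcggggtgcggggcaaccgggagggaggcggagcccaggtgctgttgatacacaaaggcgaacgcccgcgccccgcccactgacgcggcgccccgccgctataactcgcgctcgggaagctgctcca
Slc1a4, chr11:20332694-20332963, minus strand: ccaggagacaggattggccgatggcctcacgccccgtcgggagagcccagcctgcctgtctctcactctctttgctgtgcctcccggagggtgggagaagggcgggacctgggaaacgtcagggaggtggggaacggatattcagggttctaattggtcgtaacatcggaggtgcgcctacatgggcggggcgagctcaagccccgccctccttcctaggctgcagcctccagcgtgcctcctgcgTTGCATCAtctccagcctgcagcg
Slc7a11, chr3:50443594-50443863, minus strand: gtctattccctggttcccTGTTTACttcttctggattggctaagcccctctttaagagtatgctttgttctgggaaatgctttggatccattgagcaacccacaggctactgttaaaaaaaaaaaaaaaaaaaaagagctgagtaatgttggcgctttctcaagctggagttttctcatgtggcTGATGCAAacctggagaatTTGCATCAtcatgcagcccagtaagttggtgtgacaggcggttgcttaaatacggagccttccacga

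The Slc7a11 promoter holds TGATGNAA at 66 and 47 bases before the start and GTAAACA at 232 bases before it. The Slc1a4 match begins 4 bases before the start and spans it. Neither motif is in the Slc38a2 stretch. Among all 32851 RefSeq windows of 300 bases, 3.97% hold TGATGNAA, 7.15% hold CACGTG and 3.65% hold GTAAACA. Windows were found for 46 of the 64 members and for 19 of the 28 that passed the filter, some with several start sites. Of these 19 genes, 3 had TGATGNAA in a window (Slc1a4, Slc7a11 and Slc7a7), 3 had CACGTG (Slc43a1, Slc36a1 and Slc38a7) and 1 had GTAAACA (Slc7a11). Among the members called lower, 4 had windows (Slc38a2, Slc3a2, Slc36a4 and Slc6a9), and 0 of these 4 held any of the 3 motifs. Of 3 members called higher with windows, 1 held TGATGNAA and 1 CACGTG, and of 12 not called, 2 held TGATGNAA, 2 CACGTG and 1 GTAAACA. Counted by window, as in the shares above, 4, 3 and 1 of the 32 windows of tested members held TGATGNAA, CACGTG and GTAAACA. Of the 4 windows with TGATGNAA, 2 are overlapping windows of Slc7a7 that share a site, which is thus counted more than once. A match is a match of letters only, and windows of this size leave out elements farther away.

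Of the 64 members, 28 passed the low-count filter and 36 did not, 11 of them with 0 reads in all libraries. Among the 28, 4 were called higher and 6 lower, or 35.7% against 44.6% of all tested genes. The median log2 fold change of the 28 was -0.04, beside 0.01 over all tested genes. Scaling by library size alone moved the median of all genes to 0.16, the share of all calls that were higher from 49.7% to 68.5%, and the members' calls to 8 higher and 4 lower. Groups did not overlap in 12 of the 28 members (42.9%, against 54.6% of all tested genes). Families held 1 to 8 tested genes each, and no test compared them. All 3 SLC43 genes and 1 of 3 tested SLC1 genes were called higher, beside 22.2% of all tested genes. Lower calls were 1 of 1 tested gene in SLC3, 2 of 4 in SLC6, 2 of 7 in SLC38 and 1 of 2 in SLC36, beside 22.4% of all tested genes. In SLC7, 0 of 8 tested genes were called. Only 3 of the 10 called members differed at least 2-fold: Slc38a2 and Slc38a3, which were lower, and Slc43a1, which was higher.

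**Figure D1:**
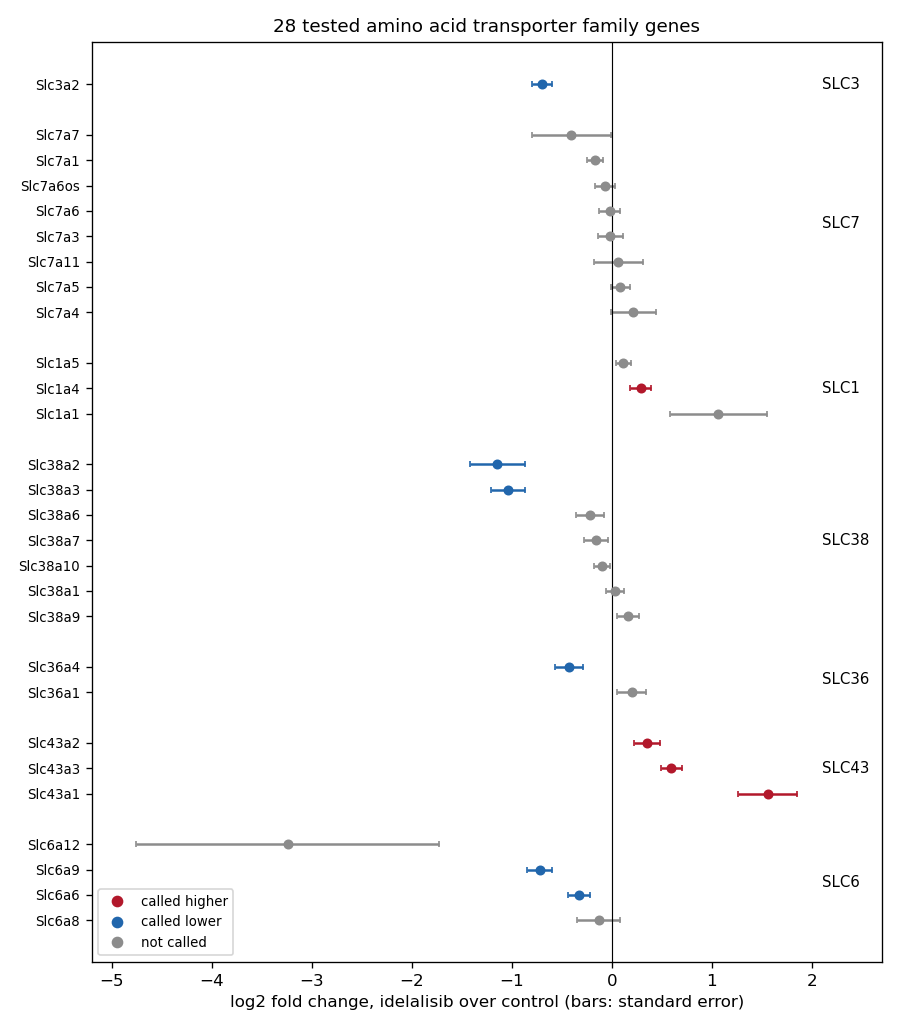
Log2 fold change of each of the 28 tested members (points) with its standard error (bars), grouped by SLC family and coloured by call. The SLC43 genes lie to the right of 0, the SLC7 genes around 0, and Slc38a2, Slc38a3, Slc3a2 and Slc6a9 to the left; Slc6a12 lies farthest left with a standard error of 1.51.

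Levels can be compared between genes only per length, so counts were also expressed as RPKM (CPM per 1000 bases of the gene length in the deposited table). In control cells Slc7a5 (110.2 ± 4.22 RPKM, SD, n = 3) and its partner Slc3a2 (109.9 ± 3.50 RPKM) were the highest members and did not differ beyond their spread. Slc38a2 followed at 75.65 ± 11.02 RPKM and Slc1a5 at 52.3 ± 1.97 RPKM. These 4 genes made up 66.2 ± 1.16% of the summed RPKM of all 64 members in control cells and 63.6 ± 3.19% with idelalisib. Next in control cells came Slc6a6, Slc38a10 and Slc7a1 at 25.4 ± 0.800, 22.0 ± 0.575 and 20.8 ± 1.03 RPKM. Slc6a12 (16.5 ± 8.04), Slc7a6 (16.3 ± 0.519), Slc38a1 (15.02 ± 0.992) and Slc43a3 (11.7 ± 0.416 RPKM) followed, and the first 3 of these did not differ beyond their spread. With idelalisib the order of the leading genes was Slc7a5 (116.9 ± 14.4 RPKM), Slc3a2 (67.66 ± 10.05), Slc1a5 (56.7 ± 3.08) and Slc38a2 (34.2 ± 12.3). The values of Slc3a2 and Slc1a5 overlapped between idelalisib libraries, as did those of Slc38a10 and Slc7a1 between control libraries.

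**Figure D2:**
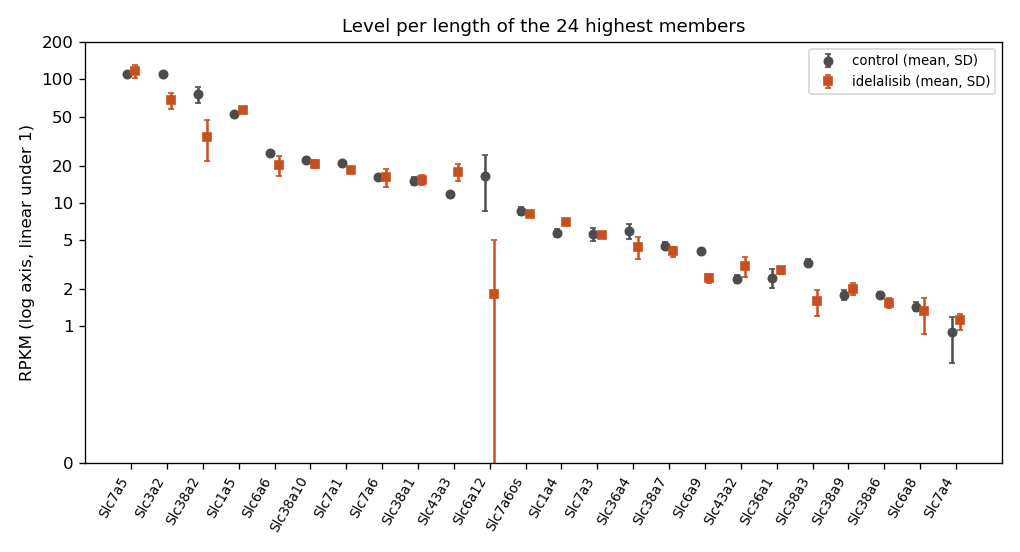
RPKM of the 24 members with the highest mean level, on a log axis that is linear under 1 RPKM; points are means of 3 control (grey circles) and 3 idelalisib libraries (orange squares), bars are SD, and the lower bar of Slc6a12 with idelalisib is cut at 0. Slc7a5 and Slc3a2 are level in control cells and apart with idelalisib, where Slc38a2 falls from the third to the fourth place.

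RNA for the heavy chain of the large neutral amino acid transporter fell, while RNA for its main light chain did not. Protein was not measured. Slc3a2 (ENSMUSG00000010095, mm10 chromosome 19, 8706882 to 8723369, minus strand) encodes CD98, the glycoprotein that carries SLC7 light chains to the membrane. It was at 384.4, 401.5 and 377.5 CPM in control replicates 1 to 3 and at 245.7, 200.4 and 270.2 CPM in idelalisib replicates 1 to 3. Every idelalisib library was below every control library. The fall was 1.62-fold (edgeR log2 fold change -0.70 with SE 0.10, adjusted p = 7.85e-05). Slc3a2 was called in all 16 alternative analyses, with log2 fold changes from -0.79 to -0.54. The other heavy chain, Slc3a1, which pairs with the cystine carrier of kidney and gut, had at most 6 reads in a library and was not tested.

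Slc7a5 (ENSMUSG00000040010, chromosome 8, 121881150 to 121907694, minus strand) was at 414.7, 420.2 and 390.8 CPM in control and 449.2, 373.9 and 476.9 CPM in idelalisib libraries. The groups overlapped, with idelalisib replicate 2 lowest of the 6. Its log2 fold change of 0.09 (SE 0.09) was not called (edgeR adjusted p = 0.477). It passed as higher without idelalisib replicate 2 (0.19, adjusted p = 0.0330) and with library size alone (0.24, adjusted p = 0.0420), while its adjusted p over the alternatives reached 0.849.

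Set per length within each library, Slc7a5 and Slc3a2 were nearly equal in control cells, with ratios of 1.03, 0.996 and 0.985. The ratio was 1.74, 1.78 and 1.68 in idelalisib libraries. This ratio does not depend on the scaling of the libraries, and its groups did not overlap. The sum of 6 light chains that pair with CD98 (Slc7a5, Slc7a6, Slc7a7, Slc7a8, Slc7a10 and Slc7a11) over Slc3a2 moved likewise, from 1.16 ± 0.0261 to 1.99 ± 0.124 (SD, n = 3).

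The other light chains were lower in level and were not called. Slc7a6 (y+LAT2, an exchanger of arginine for glutamine) was at 71.7 to 76.1 CPM in control and 66.6 to 87.0 CPM in idelalisib libraries (edgeR log2 fold change -0.02 with SE 0.10, adjusted p = 0.896). Slc7a11, the cystine and glutamate exchanger xCT (ENSMUSG00000027737, chromosome 3, 49892526 to 50443614), was low throughout, at 3.44, 3.57 and 3.36 CPM in control and 4.61, 2.69 and 3.52 CPM in idelalisib libraries. Its groups overlapped, and its log2 fold change was 0.06 (SE 0.25, edgeR adjusted p = 0.849). Its promoter is the one above with 2 TGATGNAA matches. Slc7a7 (y+LAT1) was at 0.527 to 1.63 CPM (log2 fold change -0.40, SE 0.40), and it overlaps the more abundant gene Oxa1l on the other strand.

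The cationic amino acid transporters, which work without a heavy chain, were not called either. Slc7a1 (CAT1, the main arginine importer of T cells; ENSMUSG00000041313, chromosome 5, 148327410 to 148399904) was at 228.8, 238.7 and 252.5 CPM in control and 211.1, 226.0 and 201.9 CPM in idelalisib libraries. Every idelalisib library was below every control library, but by a small margin. The log2 fold change of -0.17 (SE 0.08) did not pass (edgeR adjusted p = 0.0906). It passed without idelalisib replicate 2 (-0.21, adjusted p = 0.0228), and its adjusted p over the alternatives reached 0.881. Slc7a3 (CAT3) averaged 21.1 ± 2.46 and 20.8 ± 1.19 CPM, and Slc7a4, an orphan relative, 3.95 ± 0.922 and 4.59 ± 0.554 CPM. Slc7a6os averaged 36.1 ± 2.57 and 34.4 ± 1.33 CPM.

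**Figure D3:**
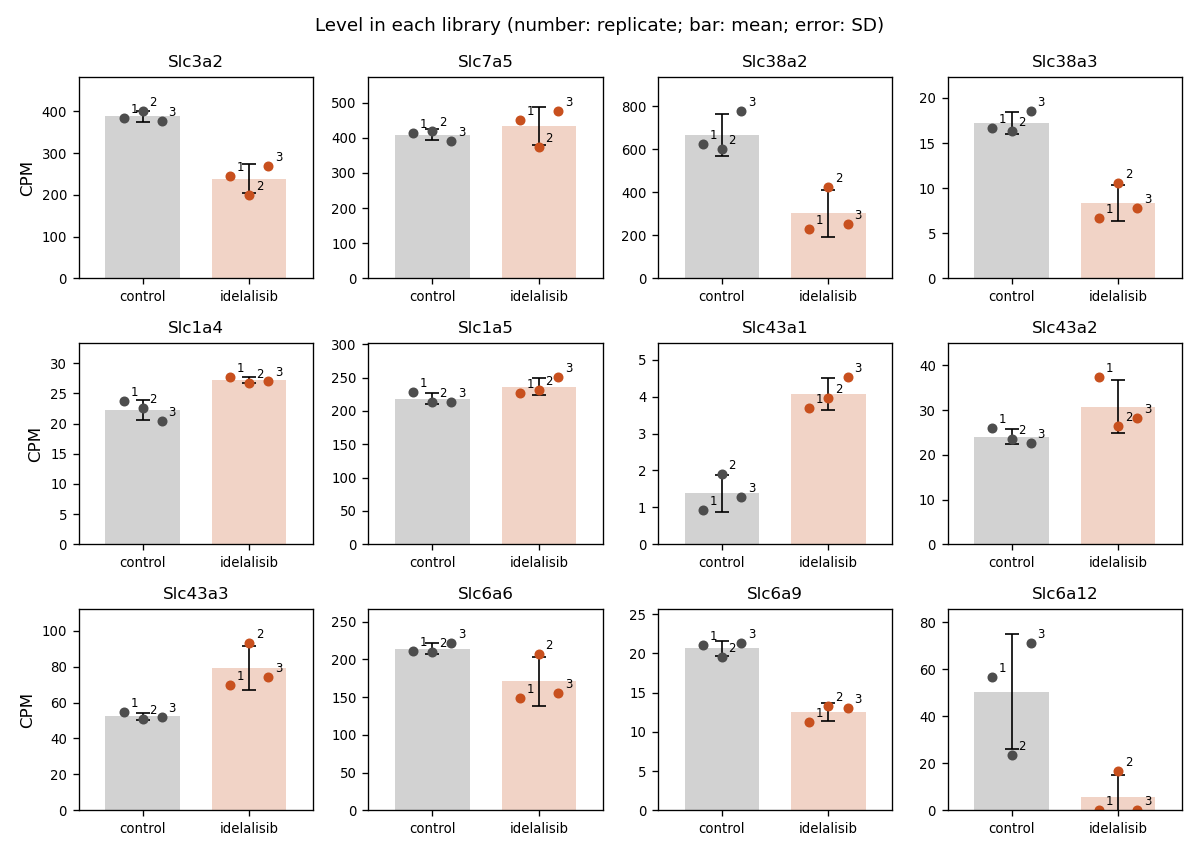
CPM of 12 members in each of the 6 libraries (points, numbered by replicate), with group means (bars from 0) and SD (error bars). Slc3a2, Slc38a2, Slc38a3 and Slc6a9 are lower in every idelalisib library than in any control library and the 3 SLC43 genes are higher, while Slc7a5 and Slc1a5 overlap; Slc6a12 is at 0 in idelalisib replicates 1 and 3.

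**Figure D4:**
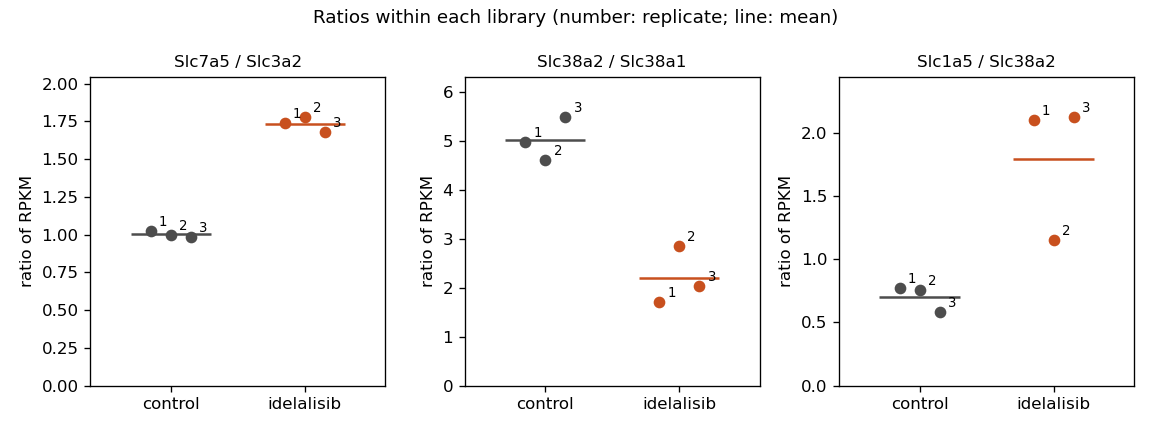
Ratios of RPKM between 2 members within each library (points, numbered by replicate; lines are means): Slc7a5 over Slc3a2, Slc38a2 over Slc38a1 and Slc1a5 over Slc38a2. The first ratio lies near 1 in control and between 1.68 and 1.78 in idelalisib libraries, and idelalisib replicate 2 lies nearest to the control libraries in the other two.

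Among glutamine and small neutral amino acid carriers, genes of the same family were not all called alike. No test compared these genes with each other. Slc38a2 (ENSMUSG00000022462, chromosome 15, 96687392 to 96699730, minus strand) encodes SNAT2, a sodium-coupled carrier of glutamine, alanine and other small neutral amino acids. SNAT2 is known to be induced by amino acid shortage. Slc38a2 had the largest counts of all members in every control library, but not in idelalisib replicates 1 and 3. It was at 624.6, 601.1 and 780.2 CPM in control and 229.5, 426.9 and 251.0 CPM in idelalisib libraries. All idelalisib libraries were below all control libraries, with replicate 2 highest among them. The fall was 2.21-fold (edgeR log2 fold change -1.14 with SE 0.28, adjusted p = 0.0222). The call was lost without control replicate 1 (adjusted p = 0.0505), without idelalisib replicate 3 (0.113) and with the lowest count filter (0.0781), and log2 fold changes over the alternatives ran from -1.47 to -0.97.

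Slc38a1 (SNAT1, which carries glutamine and lies beside Slc38a2 on chromosome 15, 96571418 to 96642913) was at 244.6, 254.1 and 277.8 CPM in control and 261.7, 291.8 and 239.6 CPM in idelalisib libraries. The groups overlapped, and the log2 fold change was 0.03 (SE 0.09, edgeR adjusted p = 0.802). The RPKM ratio of Slc38a2 to Slc38a1 within libraries was 4.98, 4.61 and 5.48 in control and 1.71, 2.85 and 2.04 with idelalisib. The ratio of these neighbours, which carry overlapping substrates, did not overlap between the groups.

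Slc38a3 (SNAT3, a glutamine, asparagine and histidine carrier best known from liver, kidney and brain; ENSMUSG00000010064, chromosome 9, 107650634 to 107669530, minus strand) fell 2.05-fold. It was at 16.6, 16.4 and 18.6 CPM in control and 6.71, 10.6 and 7.82 CPM in idelalisib libraries, without overlap (edgeR log2 fold change -1.04 with SE 0.17, adjusted p = 0.000214). The call held in all 16 alternatives. Of the other 4 tested SLC38 genes 0 were called at the main setting. Slc38a10, an SLC38 relative, averaged 141.2 ± 3.69 and 131.6 ± 9.72 CPM. Slc38a9, the lysosomal arginine sensor that signals to mTORC1, averaged 29.9 ± 2.95 and 33.4 ± 3.50 CPM, and was called higher with library size alone (log2 fold change 0.31, adjusted p = 0.0347; up to 0.660 over the alternatives). Slc38a7, a lysosomal glutamine and asparagine exporter, averaged 18.6 ± 1.13 and 16.7 ± 1.55 CPM, and Slc38a6 averaged 13.9 ± 0.858 and 11.9 ± 1.09 CPM.

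In the SLC1 family, Slc1a5 (ASCT2, the neutral amino acid exchanger that brings glutamine into activated T cells; ENSMUSG00000001918, chromosome 7, 16781340 to 16798274) was at 227.9, 213.9 and 213.4 CPM in control and 227.2, 231.4 and 251.3 CPM in idelalisib libraries. The groups overlapped and the log2 fold change of 0.12 (SE 0.08) did not pass (edgeR adjusted p = 0.242), although it did with library size alone (0.27, adjusted p = 0.0103; up to 0.475 over the alternatives). Slc1a4 (ASCT1, an exchanger of serine, alanine and cysteine; ENSMUSG00000020142, chromosome 11, 20302180 to 20332713) was at 23.8, 22.5 and 20.5 CPM in control and 27.8, 26.8 and 27.1 CPM in idelalisib libraries. All idelalisib libraries were above all control libraries, a 1.22-fold rise (edgeR log2 fold change 0.29 with SE 0.11, adjusted p = 0.0402). The call of Slc1a4 was lost in 9 of 16 alternatives, among them without any 1 of the control libraries, without idelalisib replicate 1 and with DESeq2 (adjusted p = 0.0871), with adjusted p up to 0.167.

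Slc1a1 (EAAT3, a glutamate and cysteine carrier) passed the count filter only through its idelalisib libraries. It had 9, 3 and 8 reads in control and 13, 16 and 14 reads in idelalisib libraries, and its log2 fold change of 1.07 (SE 0.48) did not pass (edgeR adjusted p = 0.0859). Of the 50-base words in its transcripts, 31.0% also occur in other genes on either strand.

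All 3 members of the SLC43 family were called higher. Slc43a3, the nucleobase carrier (ENSMUSG00000027074, chromosome 2, 84936579 to 84958509), was at 54.5, 50.9 and 51.8 CPM in control and 69.8, 93.3 and 74.5 CPM in idelalisib libraries. Groups did not overlap, and the rise was 1.51-fold (edgeR log2 fold change 0.59 with SE 0.11, adjusted p = 0.000489) and called in all 16 alternatives. Slc43a2 (LAT4, a facilitative carrier of branched-chain amino acids, phenylalanine and methionine; ENSMUSG00000038178, chromosome 11, 75531694 to 75577575) was at 26.0, 23.5 and 22.7 CPM in control and 37.5, 26.6 and 28.2 CPM in idelalisib libraries.

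The idelalisib libraries of Slc43a2 were all above the control libraries, with replicate 1 well above the others (edgeR log2 fold change 0.35 with SE 0.13, adjusted p = 0.0441). That call was lost in 8 of 16 alternatives, among them without any 1 of the control libraries and without idelalisib replicate 1, where the log2 fold change was 0.20 (adjusted p = 0.219, the highest). A transcript on the opposite strand of Slc43a2, Gm45606, was also higher (log2 fold change 1.06, edgeR adjusted p = 0.00838), and reads of the overlapping stretch cannot be told apart without the strand setting.

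Slc43a1 (LAT3, a facilitative carrier of branched-chain amino acids, phenylalanine and methionine; ENSMUSG00000027075, chromosome 2, 84838850 to 84863594), singled out after its values were seen, had the largest rise of any called member from a low level. It had 15, 29 and 18 reads in control libraries and 56, 56 and 76 reads in idelalisib libraries. These correspond to 0.939, 1.92 and 1.29 against 3.69, 3.97 and 4.54 CPM. The groups did not overlap, and the rise was 2.94-fold (edgeR log2 fold change 1.56 with SE 0.29, adjusted p = 0.000693) and called in all 16 alternatives. The B cell, granulocyte, CD8+ T cell and erythroid and platelet marker sums given above were also higher with idelalisib on average, and their part in this low-level rise was not tested.

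SLC36 genes encode proton-coupled carriers of small amino acids, several of them on lysosomes. Slc36a4 (PAT4, which carries proline and tryptophan; ENSMUSG00000043885, chromosome 9, 15709738 to 15743361) was at 36.2, 34.5 and 44.6 CPM in control and 25.5, 35.0 and 25.1 CPM in idelalisib libraries. Idelalisib replicate 2 lay within the control range. The gene was called lower (1.35-fold, edgeR log2 fold change -0.43 with SE 0.14, adjusted p = 0.0227). The call was lost without control replicate 3 or idelalisib replicate 1 or 3 and with library size alone, with adjusted p up to 0.120. Slc36a1 (PAT1, the lysosomal exporter of small amino acids) averaged 13.8 ± 2.38 and 15.8 ± 1.12 CPM, with overlap.

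Among SLC6 genes, 4 of 21 passed the filter. Slc6a6, the taurine transporter (ENSMUSG00000030096, chromosome 6, 91684053 to 91759066), was at 211.2, 209.9 and 222.2 CPM in control and 149.0, 207.9 and 155.9 CPM in idelalisib libraries. Idelalisib replicate 2 lay just under the control libraries and the other two well below them. Slc6a6 was called lower (1.25-fold, edgeR log2 fold change -0.33 with SE 0.11, adjusted p = 0.0268), but the call was lost in 8 of 16 alternatives, among them without any 1 library other than idelalisib replicate 2, with upper-quartile scaling (adjusted p = 0.0504) and with library size alone (log2 fold change -0.17, adjusted p = 0.214, the highest).

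Slc6a9 (GlyT1, a glycine importer; ENSMUSG00000028542, chromosome 4, 117834506 to 117875198) was at 21.1, 19.6 and 21.4 CPM in control and 11.26, 13.31 and 13.02 CPM in idelalisib libraries. The groups were well apart, a 1.65-fold fall (edgeR log2 fold change -0.72 with SE 0.13, adjusted p = 0.000407) that was called in all 16 alternatives. Slc6a9 overlaps B4galt2 on the opposite strand, which was also lower (log2 fold change -0.92, edgeR adjusted p = 0.00528), and 26.3% of its transcripts' 50-base words occur in other genes on either strand, so reads of the 2 genes may be mixed. Slc6a8, the creatine transporter, averaged 7.48 ± 0.599 and 6.83 ± 1.92 CPM and was not called.

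Slc6a12, singled out after its values were seen, encodes the betaine and GABA transporter BGT1, which is known to be induced by hypertonic stress (ENSMUSG00000030109, chromosome 6, 121343076 to 121365775). It had 908, 355 and 997 reads in control libraries and 0, 236 and 0 reads in idelalisib libraries. The control level was 56.8, 23.4 and 71.3 CPM, and idelalisib replicate 2 was at 16.7 CPM. A count of 0 allows up to 0.197 CPM in idelalisib replicate 1 and 0.179 CPM in replicate 3, taking 3 reads as the limit, for counting error only. Control replicate 2 thus lay nearer to idelalisib replicate 2 than to the other control libraries.

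The groups of Slc6a12 did not overlap, yet the spread within them was so wide that the fitted log2 fold change of -3.24 (SE 1.51) was not called (edgeR adjusted p = 0.161). Its adjusted p lay between 0.0530 and 0.415 over the 16 alternatives. The fitted value was -12.60 without idelalisib replicate 2 (adjusted p = 0.0530), -7.63 with limma-voom and -3.98 to -2.61 in the others. Against libraries at 0 such fitted values depend on the prior count and are no measure of size. Of 14530 tested genes, 2 were at 0 in some library and at 200 or more reads in another, Slc6a12 and Ubd. The adjacent GABA transporter gene Slc6a13 had at most 8 reads in any library. No other gene of the deposited table overlaps Slc6a12 in position. Whether these counts reflect the cultures or the counting of reads was not tested, and this holds for every value of Slc6a12 given here.

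As a family, SLC38 genes summed to 1149 ± 115 CPM in control and 769.3 ± 121 CPM with idelalisib, mostly through Slc38a2. The SLC7 sum was 789.3 ± 11.5 and 785.0 ± 30.5 CPM and the SLC43 sum 77.9 ± 3.11 and 114.0 ± 8.73 CPM. Summed over all members, the level was 2942, 2902 and 3133 CPM in control and 2311, 2545 and 2389 CPM in idelalisib libraries. Leaving out Slc38a2 and Slc3a2, both called lower, the sums were 1936 ± 38.4 and 1874 ± 41.0 CPM, and the groups then overlapped. Leaving out genes that fell had to narrow the gap. The overlap rests on control replicate 2 (1899 CPM) and idelalisib replicate 2 (1917 CPM). All these sums depend on TMM scaling, whose factors were 0.942 to 0.955 in control and 1.046 to 1.062 in idelalisib libraries. Sums with library size alone were not computed. Among the 10 called members, idelalisib replicate 2 was the idelalisib library nearest to the control mean in 7, replicate 1 in 2 and replicate 3 in 1. This was not counted over all called genes. Over all tested genes, log CPM of idelalisib replicate 2 correlated at 0.984 with replicate 1 and 0.983 with replicate 3. Idelalisib replicates 1 and 3 correlated at 0.988. Without idelalisib replicate 2, 5 members were called higher and 7 lower; without idelalisib replicate 3, 4 higher and 3 lower.

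The 36 members that did not pass the filter had 55 reads or fewer over all 6 libraries. They include the neuronal and glial glutamate carriers Slc1a2 and Slc1a3 (13 and 8 reads in all), the serotonin and dopamine transporters Slc6a4 and Slc6a3 (10 and 4 reads), the light chain Slc7a8 (LAT2, 29 reads) and the arginine carrier Slc7a2 (22 reads). Slc36a3 had the most, with 10, 7 and 11 reads in control and 14, 4 and 9 in idelalisib libraries. Slc38a5 (SNAT5), Slc6a14, Slc7a9, Slc7a12, Slc7a13, Slc1a7, Slc6a2, Slc6a5, Slc6a11, Slc6a15 and Slc6a18 had 0 reads, which allows at most 0.214 CPM in a library.

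Lists of related genes give the setting of these changes. Carriers of amino acids outside the 7 families, mostly mitochondrial and lysosomal, held 7 higher and 2 lower of 19 tested genes (median log2 fold change 0.09), 47.4% called against 44.6% of all tested genes. The higher count was 4 without control replicate 3. The lower count was 0 without control replicate 1 or 3 and with library size alone, and 1 without control replicate 2 or idelalisib replicate 2 or 3. Slc25a13, the mitochondrial aspartate and glutamate exchanger citrin, rose from 14.65 ± 1.04 to 29.98 ± 2.74 CPM (edgeR log2 fold change 1.03 with SE 0.12, adjusted p = 1.27e-05). The ornithine carrier Slc25a15 rose by 0.80 and Pqlc2, the lysosomal exporter of cationic amino acids, by 0.64 on the log2 scale; the call of Pqlc2 was lost without control replicate 3 (adjusted p = 0.0532, the highest).

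Genes that report amino acid supply to mTORC1 at the lysosome held 6 higher and 9 lower of 30 tested genes (median -0.12), where 22.2% and 22.4% of all tested genes were called in these directions. The higher count was 3 without control replicate 3. Flcn, which encodes folliculin, the activator of RagC and RagD, was at 129.7, 101.4 and 139.7 CPM in control and 39.5, 38.7 and 37.0 CPM in idelalisib libraries, far apart (edgeR log2 fold change -1.69 with SE 0.11, adjusted p = 9.62e-08). Bmt2, the methionine sensor SAMTOR, had a log2 fold change of -1.09, and Rragb, a Rag GTPase, rose from 2.47 ± 0.310 to 5.27 ± 1.06 CPM.

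Enzymes of amino acid metabolism held 9 higher and 10 lower of 35 tested genes (median -0.13), 54.3% called against 44.6% of all tested genes, and 5 lower with library size alone. The liver-type glutaminase Gls2 fell by 0.90 and the transsulfuration enzyme Cbs by 0.97 on the log2 scale, while the proline oxidase Prodh was higher by 0.95 at low counts. The call of Cbs was lost without control replicate 3 (adjusted p = 0.0724, the highest), and that of Prodh in 8 of 16 alternatives (adjusted p up to 0.151).

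Regulators of transporter genes and proteins held 2 higher and 11 lower of 27 tested genes (median -0.09). Of these 27, 48.1% were called, against 44.6% of all tested genes. By direction, 22.2% of all tested genes were called higher and 22.4% lower. With library size alone the list held 5 higher and 7 lower. Atf4 was at 455.1, 456.1 and 460.9 CPM in control and 252.7, 245.3 and 261.1 CPM in idelalisib libraries, with little spread within either group (edgeR log2 fold change -0.85 with SE 0.07, adjusted p = 9.34e-07). The endoplasmic reticulum stress kinase gene Eif2ak3 (PERK) had a log2 fold change of -0.90. Those that rose were Eif2ak2, the interferon-induced kinase PKR, by 1.84, and Txnip, which limits glucose uptake, by 1.54 in log2. Myc, a known activator of transporter genes in T cells, averaged 222.1 ± 16.99 and 258.0 ± 18.4 CPM (edgeR log2 fold change 0.22 with SE 0.09, adjusted p = 0.0530) and was called higher in 5 of 16 alternatives. Over the 4 lists together, 24 genes were higher and 32 lower of 111 tested, 50.5% against 44.6% of all tested genes, and library size alone gave 34 higher and 18 lower.

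**Figure D5:**
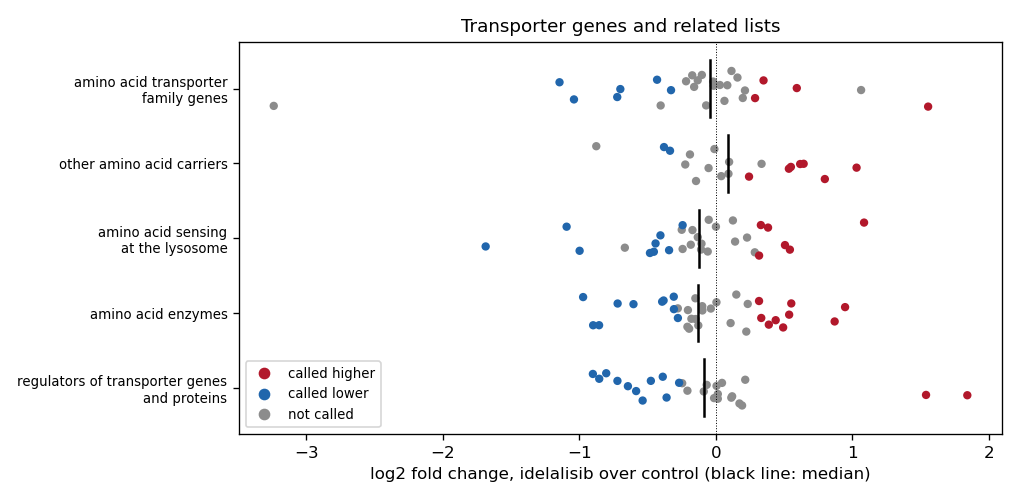
Log2 fold changes of the 28 tested transporter family genes and of the tested genes in 4 related lists; each point is a gene coloured by call, black lines are medians, and the vertical spread within a row has no meaning. Medians of the 5 rows lie between -0.13 and 0.09. Of 27 genes in the regulator row, 11 were called lower and 2 higher, beside 22.4% and 22.2% of all tested genes. With library size alone that row held 7 lower and 5 higher.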

How the data were processed

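The authors deposited raw read counts per gene, 1 column per library. The tools listed by the submitters' processing notes are featureCounts 1.5.0-p3, HISAT2 2.0.5 and fastp, and the build is mm10. The sources used here do not give the strand setting or the handling of reads with several matches. Columns were matched to samples by library name and groups taken from the titles.

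Genes were filtered with filterByExpr (minimum count 10, minimum total 15), scaled with TMM and compared in R 4.3.3 by the robust quasi-likelihood F test of edgeR 4.0.16, with group as the only term. P-values were Benjamini-Hochberg adjusted over all tested genes. Each standard error is the absolute fold change (log2) divided by the root of its F. RPKM values use the deposited gene length; in GENCODE M21, 62 of 64 members have identical coordinates.

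The members and lists were chosen with earlier results of these data known. Values per library are given for called members averaging at least 5 CPM and, called or not, for Slc7a5, Slc3a2, Slc1a5, Slc38a1, Slc38a2, Slc7a1 and Slc7a11, and from each of the 4 lists the 3 called genes with the largest change at 1 CPM or more, plus Myc and Atf4. Slc43a1, Slc6a12, Slc1a1 and Slc36a3 were given library by library after their values were seen. The 16 alternatives were other scalings, DESeq2 1.42.0, limma-voom (limma 3.58.1), other filters and thresholds, a replicate block and leaving out each library.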

Additional observations from a re-analysis of the deposited data

How the results depend on the processing

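No called member, and none of the called list genes chosen by the naming rule, changed sign in any of the 16 alternatives; of the members not called, Slc38a1, Slc38a10, Slc6a8, Slc7a3, Slc7a6, Slc7a6os and Slc7a11 did, around values near 0. The number of members called higher (4) was 8 with library size alone and 2 with DESeq2, with protein-coding genes alone and at an adjusted p under 0.01, and 2 to 5 when each library was left out. The number called lower (6) was 3 at an adjusted p under 0.01 and 3 to 7 when each library was left out. Of the 56 list genes called, 24 were higher and 32 lower; at an adjusted p under 0.01 these were 14 and 20, with library size alone 18 were lower, and without each library in turn 15 to 25 were higher. With a replicate block, 3 members were higher and 6 lower, and Slc1a4 was not called (adjusted p = 0.0686; 0.00389 to 0.167 over its alternatives). Correlations of deviations between same-numbered libraries were 0.08, -0.13 and -0.10, so the numbers were not used to pair them. The cause of these differences was not tested. Depth limits Slc43a1, Slc7a7, Slc1a1 and Slc7a11, which rest on 76 reads or fewer in each library.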

Other observations

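Slc17a6, which encodes a vesicular glutamate transporter known from neurons, averaged 54.4 CPM in the control group against 54.1 CPM with the drug (log2 fold change -0.01). Slc16a10, a carrier of aromatic amino acids, rose from 26.1 to 40.2 CPM, and Slc25a44, the mitochondrial carrier of branched-chain amino acids, from 14.6 to 21.2 CPM. Fnip1, the partner of folliculin, fell from 203.7 ± 13.5 to 102.1 ± 12.7 CPM beside Flcn. These genes were chosen after their values were seen.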
